A study of Homo sapiens with 4 samples.

Results

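The human globin genes make up the alpha-like cluster on chromosome 16 and the beta-like cluster on chromosome 11. The 10 named members, HBZ, HBM, HBA2, HBA1 and HBQ1 in the first and HBB, HBD, HBG1, HBG2 and HBE1 in the second, were all found among 19974 protein-coding genes of the RefSeq table. They were taken by name, and every CTCF peak centred within 200 kb of either cluster was taken with them, 16 of 42462 peaks in the list. The rule for choosing the genes and the windows uses no measured value, although it was written with earlier results of these data known. The peaks in the windows are those that were called from this library's tags. Of the 16 peaks, 11 lay around the alpha-globin genes and 5 around the beta-globin genes.

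The cells were MDA-MB-435, a long-established line from human melanoma, and so not of the red cell lineage. Binding of CTCF, a zinc finger protein of insulators and chromatin loop anchors, was measured by ChIP-seq, the sequencing of DNA that is immunoprecipitated with the protein. Asynchronous cells were sampled as 2 replicates with a rabbit antibody against CTCF. The other group was 2 replicates of mitotic cells, held in thymidine and then nocodazole, with an antibody against CTCF phosphorylated at T431. Values come from asynchronous replicate 1 alone, which leaves them without a replicate check, and asynchronous cells were not compared with mitotic ones. That library held 19210460 tags. A peak list carries no expression values, so whether any globin gene was transcribed, and the identity of the line, could not be checked from it.

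Hemoglobin is built from alpha-like and beta-like chains, and both clusters switch genes during development. HBZ and HBE1 are the embryonic genes, HBG1 and HBG2 the fetal beta-like genes, HBA1 and HBA2 the fetal and adult alpha genes, HBB the main adult beta gene and HBD its minor adult partner. HBM and HBQ1 are transcribed alpha-like genes with no established place in hemoglobin. In red cell precursors most of the alpha-globin enhancers lie in introns of the neighbouring gene NPRL3, and the beta-globin locus control region lies beyond HBE1. CTCF sites are known to flank both clusters. The files used here mark neither enhancers nor such known sites.

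Promoter sequences were matched by symbol in the RefSeq table of build GRCh38.p14, which runs from 250 bases before to 50 bases after each gene start. HBD and HBM matched, and HBA1, HBA2, HBB, HBE1, HBG1, HBG2, HBQ1 and HBZ did not. The promoters of these 2 members are shown because they lie inside peak-free intervals described below. Capitals mark 4 short boxes known from red cell promoters, on either strand. They are CACCC, which KLF1 and related factors bind, the common promoter box CCAAT, the TATA-like box ATAAA, and AGATAA, which GATA factors bind. The HBD promoter (chr11:5234434-5234733, minus strand) and the HBM promoter (chr16:165728-166027, plus strand) read 5′ to 3′ as follows.
HBD: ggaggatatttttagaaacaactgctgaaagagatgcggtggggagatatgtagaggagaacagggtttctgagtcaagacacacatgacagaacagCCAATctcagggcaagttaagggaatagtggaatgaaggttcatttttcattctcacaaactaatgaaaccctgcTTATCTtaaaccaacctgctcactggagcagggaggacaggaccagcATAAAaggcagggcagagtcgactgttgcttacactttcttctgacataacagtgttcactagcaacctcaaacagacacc
HBM: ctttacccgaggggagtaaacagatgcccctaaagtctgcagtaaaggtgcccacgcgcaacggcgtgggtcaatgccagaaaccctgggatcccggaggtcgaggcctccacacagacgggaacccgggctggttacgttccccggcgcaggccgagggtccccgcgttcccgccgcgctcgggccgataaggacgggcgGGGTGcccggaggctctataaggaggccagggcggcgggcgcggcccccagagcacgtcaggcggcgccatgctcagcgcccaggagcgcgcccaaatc
HBD held 1 CCAAT at -153 bases from the gene start, 1 AGATAA at -78, 1 ATAAA at -31 and 0 CACCC. Between the last 2 boxes it reads ccaac, which misses CCAAT by 1 letter. Only exact letters were counted, and whether any box works at its position was not tested. HBM held 1 CACCC and 0 of the other 3 in these exact spellings. It also reads cgataa and ataag, which miss AGATAA and ATAAA by 1 letter each, so the 0 does not show that such elements are absent. None of the marked letters overlapped each other. Of 34943 promoter windows, 59.8% held CACCC, 34.6% CCAAT, 35.0% ATAAA and 10.4% AGATAA. A 12-letter pattern of the CTCF core motif, present in 2.41% of all windows, was in neither. The nearest peak was 29.3 kb from the HBD window and 15.4 kb from the HBM window.

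The promoters of the alpha-globin neighbours FAM234A and AXIN1 are shown because a CTCF peak lay at each. Here capitals mark CCCTC and AGGGGGC on either strand, 2 short runs found within CTCF sites. AGGGGGC was added after the sequences had been seen. The FAM234A promoter (chr16:234571-234870, plus strand) ended 2 bp from its peak, and 206 bases of the AXIN1 promoter (chr16:352674-352973, minus strand) lay inside its peak.
FAM234A: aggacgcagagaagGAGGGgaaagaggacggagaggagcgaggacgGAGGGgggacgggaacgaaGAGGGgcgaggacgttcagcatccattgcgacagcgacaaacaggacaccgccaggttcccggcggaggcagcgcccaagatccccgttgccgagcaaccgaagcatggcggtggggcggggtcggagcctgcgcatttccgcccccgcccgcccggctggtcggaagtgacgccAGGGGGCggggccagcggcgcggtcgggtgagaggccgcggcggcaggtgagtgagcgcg
AXIN1: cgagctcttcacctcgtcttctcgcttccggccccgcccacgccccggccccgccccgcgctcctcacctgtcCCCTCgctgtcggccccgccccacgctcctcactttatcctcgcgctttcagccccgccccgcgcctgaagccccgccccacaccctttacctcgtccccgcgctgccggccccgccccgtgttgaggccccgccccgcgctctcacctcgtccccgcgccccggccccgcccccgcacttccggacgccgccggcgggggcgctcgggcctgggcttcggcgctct
FAM234A held CCCTC 3 times and AGGGGGC once, with no overlap between them. AXIN1 held CCCTC 1 time and AGGGGGC 0 times, and neither promoter held the 12-letter core pattern. Of the marked runs in both promoters, 0 lay inside a peak. The 1 in AXIN1 (352896 to 352900) fell just past the peak's end, and the FAM234A window shared 0 bases with its peak. Only exact letters were counted. Inside its peak the AXIN1 promoter reads cgggggc, which misses AGGGGGC by 1 letter. The 0 thus does not show that such runs are absent there. CCCTC was present in 71.2% of all 34943 windows and AGGGGGC in 14.3%, so the first is common in any promoter. G and C made up 71.3% of the FAM234A window and 78.0% of the AXIN1 window, against a median of 58.7% over all windows.

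The alpha-globin genes sat together in a single stretch without a called peak, closed immediately past HBQ1 by a strong one. The cluster spans 28.5 kb (chromosome 16, 152644 to 181179, hg38), and 0 peaks were centred inside it. The strength of a peak is given in normalised tags, its count scaled to 10000000 tags in the library, with an exact Poisson 95% interval. The peak past HBQ1 (181426 to 181774) began 247 bp from that gene's higher end and held 86.4 normalised tags (73.8 to 100.6), more than 97.4% of the 42388 peaks on chromosomes 1 to 22 and X. On the other side the nearest peak (117733 to 118081) lay 34.6 kb below HBZ, inside NPRL3, a subunit gene of a complex that restrains the growth kinase mTORC1. It held 29.2 normalised tags (22.02 to 37.9), so the pair bordering the cluster was unequal. The HBQ1-side peak had 2.96 times the tags of the NPRL3-side peak (exact interval 2.18 to 4.09). With the caller's score, a tag count adjusted for position, the ratio was 2.83.

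**Figure D1:**
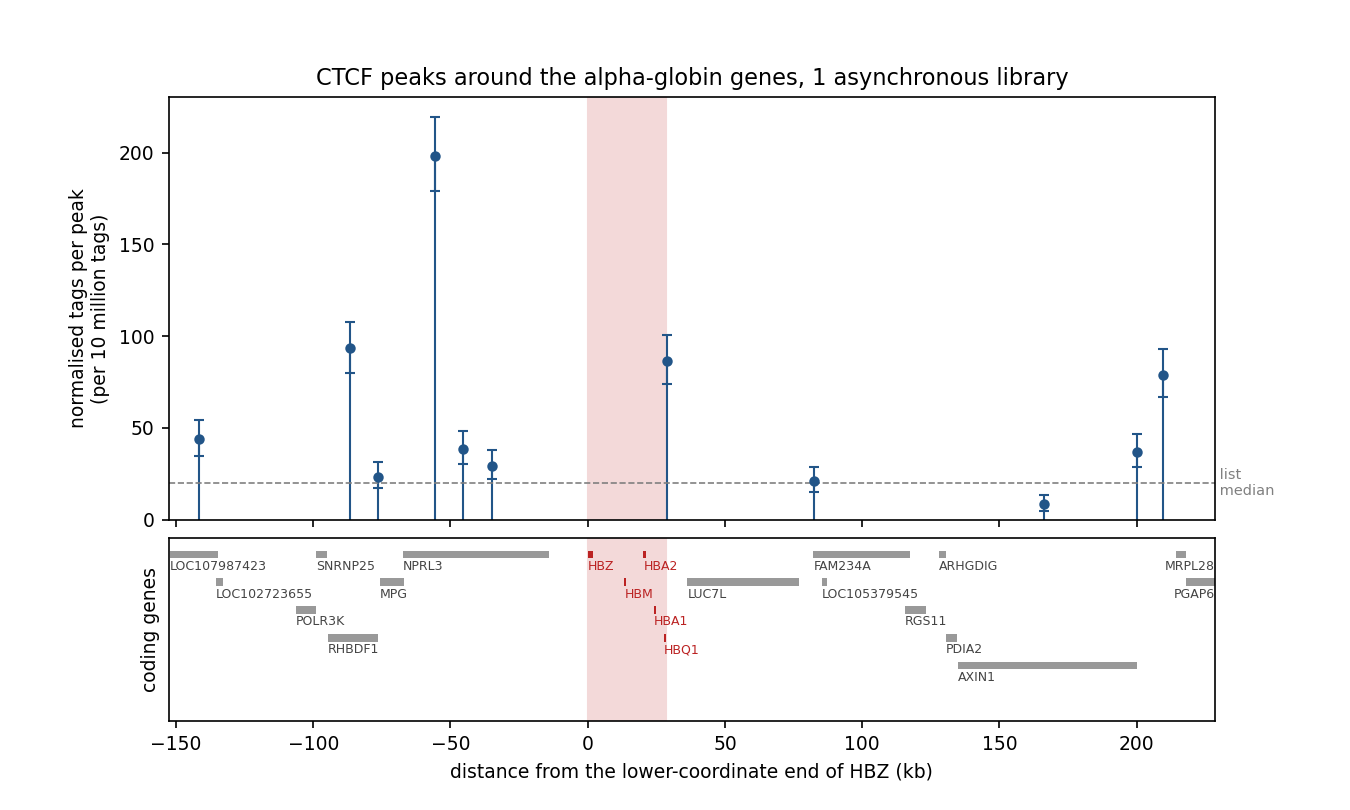
CTCF peaks within 200 kb of the alpha-globin genes. Points are normalised tags per peak (y axis) with exact Poisson 95% intervals at their distance in kb from the lower end of HBZ (x axis), the shaded span is the cluster, bars below are protein-coding genes (globin genes in red) and the dashed line is the median of the list, 20.0. No point falls inside the shaded span, and the peak at its right edge holds 86.4 normalised tags.

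The lower-coordinate side of the alpha-globin cluster, towards the chromosome end, held 6 peaks and the strongest of the window. NPRL3 contained 3 of them. The strongest (96912 to 97260) lay 55.4 kb below HBZ, held 198.1 normalised tags (179 to 219) and ranked 49th by tags in the list. The other two NPRL3 peaks held 38.3 normalised tags (30.2 to 48.4), 45.2 kb below HBZ, and the 29.2 already given, so the strongest had 5.17 times the tags of the next. Which of these peaks lie in exons or introns was not analysed here.

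Beyond NPRL3, RHBDF1, an inactive rhomboid protease gene, held 2 peaks. The peak in its body (65692 to 66040) had 93.4 normalised tags (80.0 to 107.9). The peak across its higher end (76095 to 76443) had 23.2 (17.1 to 31.3) and lay 564 bp from MPG, which encodes a DNA repair glycosylase. That peak stood 7.24-fold over its surrounding 10 kb, the lowest fold of the 11, on the highest local background of the 11 (3.20 normalised tags, computed as tags divided by the fold). The outermost peak (10871 to 11219), 141 kb below HBZ, held 43.7 normalised tags (34.9 to 54.1) inside the predicted gene LOC107987423. It differed from the other 10 in its surroundings. Its local background was 0.0941 normalised tags and its fold 464.6, the 9th highest of the list, while its tag count was below those of 4 others in the window. How much of its surrounding 10 kb, so near the chromosome end, could take tags was not checked.

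The higher-coordinate side of the alpha-globin cluster held 5 peaks, spread over 181 kb. After the peak beside HBQ1 none was called across LUC7L, a splicing factor gene, for the next 53.1 kb. The FAM234A peak (234872 to 235220) then held 21.3 normalised tags (15.3 to 29.0), centred 225 bp from the gene's start. AXIN1, the scaffold of the complex that degrades beta-catenin, held 2 peaks. One, centred 18 bp from its start (352531 to 352879), had 37.0 normalised tags (28.9 to 46.6). The other, in its body (318648 to 318996), had 8.33 (4.76 to 13.5), the weakest of the window. The outermost (362160 to 362508) held 78.9 normalised tags (67.0 to 92.7), 4.46 kb from MRPL28, a mitochondrial ribosomal protein gene. This side thus had 2 strong peaks, at its inner and outer limits, with 3 weaker ones between. The first peak outside the window was centred 176 bp past the limit and held 8.07 normalised tags (4.76 to 13.5). The weakest peak inside held a similar 8.33.

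The beta-globin genes were also free of called peaks, with a peak at nearly the same distance on either side. The cluster spans 44.5 kb (chromosome 11, 5225464 to 5269945) and 0 peaks were centred inside it. Below HBB the nearest peak (5204799 to 5205147) was 20.3 kb away and held 26.3 normalised tags (19.8 to 34.9). Above HBE1 the nearest (5291284 to 5291632) was 21.3 kb away, overlapped the olfactory receptor pseudogene OR51AB1P and held 36.7 (28.9 to 46.6). Unlike at the alpha-globin cluster, the tags of the bordering pair could not be told apart at this depth, with a ratio of 1.39 (exact interval 0.958 to 2.04).

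**Figure D2:**
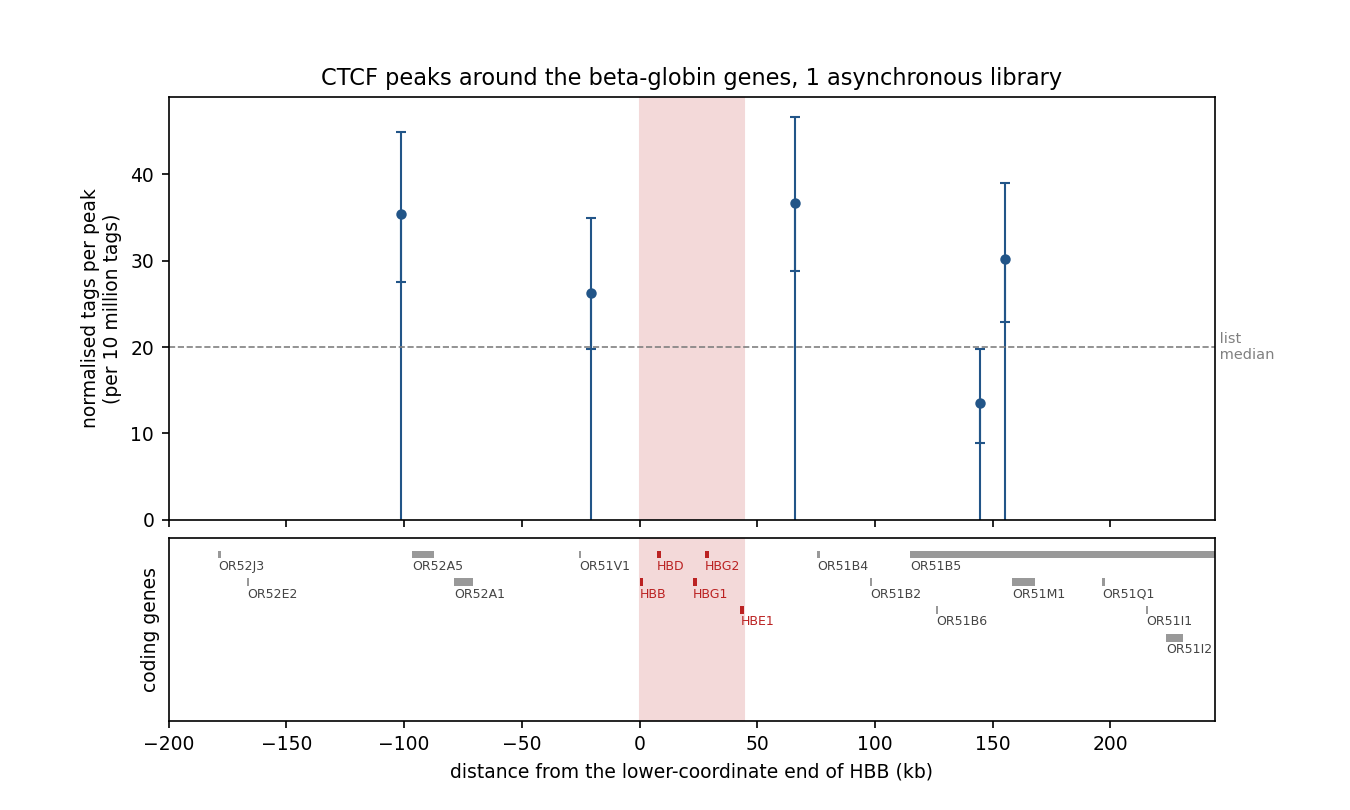
CTCF peaks within 200 kb of the beta-globin genes. Points are normalised tags per peak (y axis) with exact Poisson 95% intervals at their distance in kb from the lower end of HBB (x axis), with the cluster shaded, globin genes in red, other protein-coding genes in grey and the list median of 20.0 dashed. The 5 peaks lie outside the shaded span and hold 13.5 to 36.7 normalised tags.

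Farther out, the beta-globin window held 3 more peaks. One lay 101 kb below HBB (5124056 to 5124404) with 35.4 normalised tags (27.5 to 44.9), 4.37 kb from OR52A5. The pair on the other side lay inside the long annotated span of OR51B5, 99.9 and 110.8 kb above HBE1. They held 13.5 (8.84 to 19.8) and 30.2 (22.9 to 39.0) normalised tags. The first of these was the weakest of the window. It was the only one of the 5 below the list median, and its interval did not overlap those of the 3 strongest. The first peaks outside the window held 22.1 normalised tags, centred 20.8 kb beyond its lower limit, and 25.2, centred 6.46 kb beyond its upper limit, both within the range of those inside.

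All 10 members lacked a peak overlapping the gene, where 52.5% of all protein-coding genes had one. Long genes have more room for a peak, and the members are 721 to 1860 bp long. Within 1 kb of an annotated end, 1 of the 10 genes had a peak, HBQ1 (10.0%, Clopper-Pearson 95% interval 0.253 to 44.5), against 30.1% of all protein-coding genes. That interval includes the share of all genes, so no lack of peaks at gene ends could be shown with 10 members. Counting the gene body as well left HBQ1 alone, against 58.3% of all genes, and within 5 kb of an end HBA1 joined it, 2 of 10 against 53.7%. The members share their neighbourhood, and the 10 genes are 2 places in the genome rather than 10.

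Among the alpha-like genes the distance to the nearest peak fell from the embryonic gene to the last of the row. It was 26.9 kb for HBZ, 14.7 kb for HBM, 7.72 kb for HBA2, 3.90 kb for HBA1 and 0.247 kb for HBQ1, each time to the peak past HBQ1. The beta-like genes were farther from any peak, except that HBZ was farther than HBB and HBE1. For HBB the distance was 20.3 kb and for HBD 27.7 kb, both to the lower peak. The fetal genes in the middle of the cluster were the most remote, HBG1 at 41.4 kb and HBG2 at 36.5 kb, and HBE1 lay 21.3 kb from the upper peak. A shorter distance than that of HBG1 was found for 91.5% of protein-coding genes, and a shorter one than that of HBA1 for 65.5%. Both shares include the 52.5% of genes that overlap a peak, and gene length was not matched. HBA1 and HBA2 are near-identical copies, as are HBG1 and HBG2. Tags from such copies may not map to 1 place, their handling is not given in the sources used here, and the missing peaks there carry that limit.

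The 2 peak-free intervals were alike in the coding genes they held. The alpha-globin interval ran from 118082 to 181425 on chromosome 16 (63.3 kb) and the beta-globin interval from 5205148 to 5291283 on chromosome 11 (86.1 kb). Each held all 5 of its globin genes whole and no other whole protein-coding gene. The alpha-globin interval also took in the last 20.6 kb of NPRL3 at its higher-coordinate end, where that minus-strand gene starts. Among other RNA genes and pseudogenes, it held the globin pseudogenes HBZP1 and HBAP1. In the beta-globin interval lay the pseudogene HBBP1 and BGLT3, an RNA gene between the fetal and adult genes. As lengths, the intervals were not extreme. Of 42365 intervals between neighbouring peaks, 68.4% were shorter than the first and 77.1% shorter than the second, and the median was 34.7 kb. Most intervals held no whole protein-coding gene, and 6088 (14.4%) held at least 1. Intervals with at least 5, the number in each globin interval, were few, 176 of 42365 or 0.415%. Their median length was 205.9 kb, and 14 of the 176 were shorter than the alpha-globin interval and 31 shorter than the beta-globin one. Genes as short as these take little room in such a stretch, and gene length was not matched here.

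**Figure D3:**
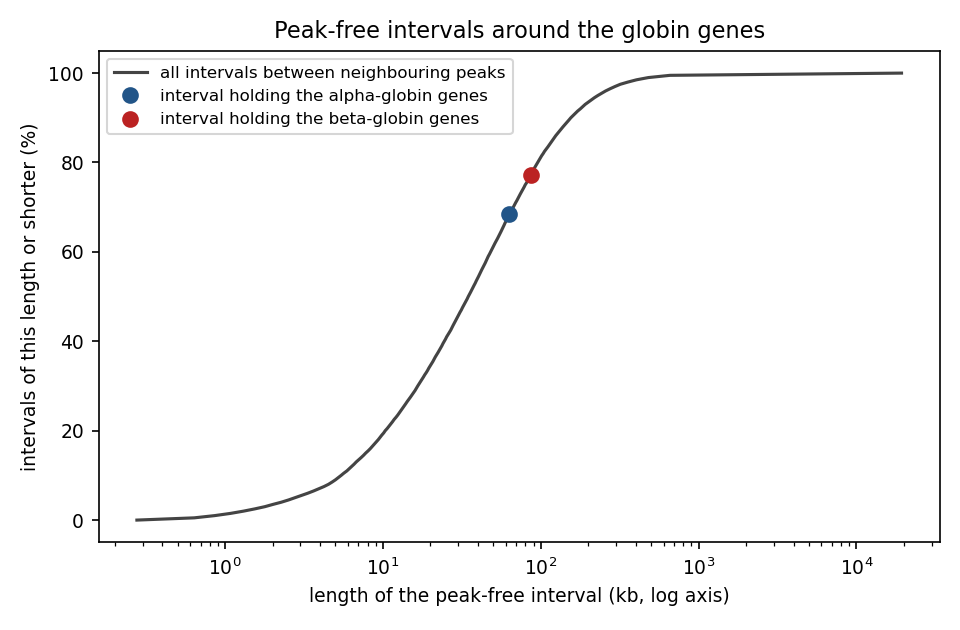
Length of the stretches between neighbouring CTCF peaks. The line gives the percentage of all 42365 intervals (y axis) at or below each length in kb (x axis, log scale), and the points mark the intervals holding the alpha-globin genes (63.3 kb) and the beta-globin genes (86.1 kb), at 68.4% and 77.1%.

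The peaks of the alpha-globin window spanned a wider range of strength than those of the beta-globin window. A range widens with the number of peaks, here 11 against 5, and the difference was not tested. Normalised tags ran from 8.33 to 198.1 with a median of 38.3 over the 11 peaks of the former, and from 13.5 to 36.7 with a median of 30.2 over the 5 of the latter, so the ranges overlapped. Above the list median of 20.0 were 10 of 11 and 4 of 5, against 49.5% of all peaks. At or above the 90th percentile of the list (55.2 normalised tags) were 4 of 11 and 0 of 5, against 10.1% of all peaks. These 4 were the strongest NPRL3 peak, the RHBDF1 body peak, the HBQ1 peak and the outermost peak near MRPL28. The median focus ratio, which is higher where plus and minus strand tags separate cleanly about the centre, was 0.891 and 0.902, against 0.847 over the list. The median folds over the surroundings were 26.5 and 26.4, against 13.6. The local background moved with the window as well. It exceeded the list median of 1.47 normalised tags at 7 of the 11 alpha-globin peaks and at 1 of the 5 beta-globin peaks, with medians of 1.92 and 1.05, and its part in the difference in tags was not tested.

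**Figure D4:**
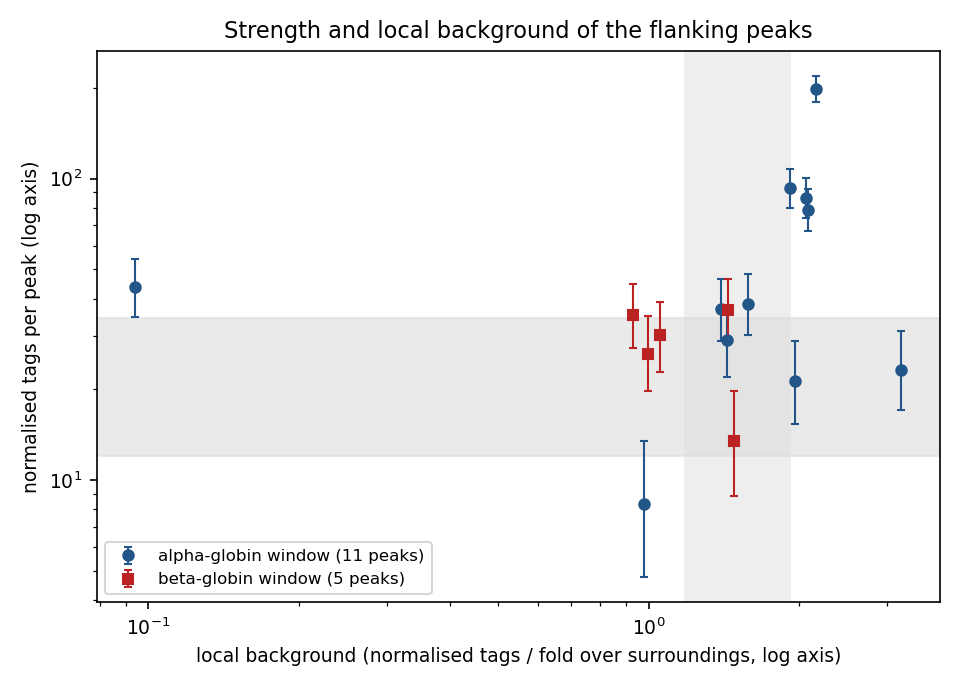
Normalised tags per peak (y axis, log scale, exact Poisson 95% intervals) against the local background in normalised tags (x axis, log scale) for the 11 alpha-globin and 5 beta-globin window peaks, with the range between the quartiles of all peaks shaded on each axis. The 4 strongest alpha-globin peaks stand above the shaded band of tags at backgrounds of 1.92 to 2.17, and the outermost alpha-globin peak stands alone at 0.0941.

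The alpha-globin window held 2.89 peaks per 100 kb (exact Poisson 95% interval 1.44 to 5.16) and the beta-globin window 1.12 (0.365 to 2.63). Both intervals included the density of the chromosome in question, 1.46 on chromosome 16 and 1.68 on chromosome 11, and they overlapped each other. The density over chromosomes 1 to 22 and X, 1.399, lay just below the lower bound for the alpha-globin window (1.441) and within the interval for the beta-globin window. The chromosome densities use whole chromosome lengths, gaps included, and were not corrected for stretches that cannot take tags. The alpha-globin window reaches the chromosome end 153 kb below HBZ, so that side is shorter than 200 kb. Of the peaks, 9 of 11 in the alpha-globin window and 2 of 5 in the beta-globin window overlapped a protein-coding gene, against 51.0% of all peaks. With so few peaks the shares of the 2 windows were not tested against it.

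The neighbours of the clusters differ in kind. Around the alpha-globin genes are 16 other protein-coding genes, among them POLR3K, an RNA polymerase III subunit gene, and SNRNP25, a minor spliceosome gene. Around the beta-globin genes the 13 others are all olfactory receptor genes. A peak within 1 kb of an end was found at 5 of the 16 (31.3%, 11.02 to 58.7), close to the 30.1% of all genes. The 5 were RHBDF1, MPG, FAM234A, AXIN1 and PGAP6, of which RHBDF1 and MPG share a peak. The PGAP6 peak, 63 bp from the gene's end and outside the window, held 7.81 normalised tags. Of the 13 olfactory receptor genes 0 had one (upper bound 24.7%), although OR51B5 held peaks in its body and OR51M1 lay 2.72 kb from one. These shares rest on 2 places, and the difference between them was not tested.

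Genes of the red cell programme outside the clusters were then counted from a list of 37. A peak lay within 1 kb of an end at 6 (16.2%, 6.19 to 32.0), an interval that includes the 30.1% of all genes. Heme synthesis gave 3 of 8. ALAD, an early enzyme of that pathway, had 80.2 normalised tags (68.0 to 93.9) 46 bp from its end, PPOX, a late one, had 38.3 (30.2 to 48.4) across its end, and UROD had 35.7. Of 12 transcription factors and cofactors 1 had a peak there, LMO2, a bridging protein of the GATA1 complex, with 49.2 (40.0 to 60.5) at 365 bp. Of 14 membrane and surface genes 2 had one, EPB42 with 32.5 and the transferrin receptor gene TFRC with 11.2. AHSP, the chaperone of free alpha-globin, had none and lay 54.8 kb from the nearest peak. The globins outside the clusters gave 1 of 4, the myoglobin gene MB with 42.7 normalised tags (33.9 to 53.0) across its end. ADGB had none at its ends. UROD, EPB42, TFRC and, among the neighbours, LUC7L, PGAP6, POLR3K and SNRNP25 were named after their values were seen.

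**Figure D5:**
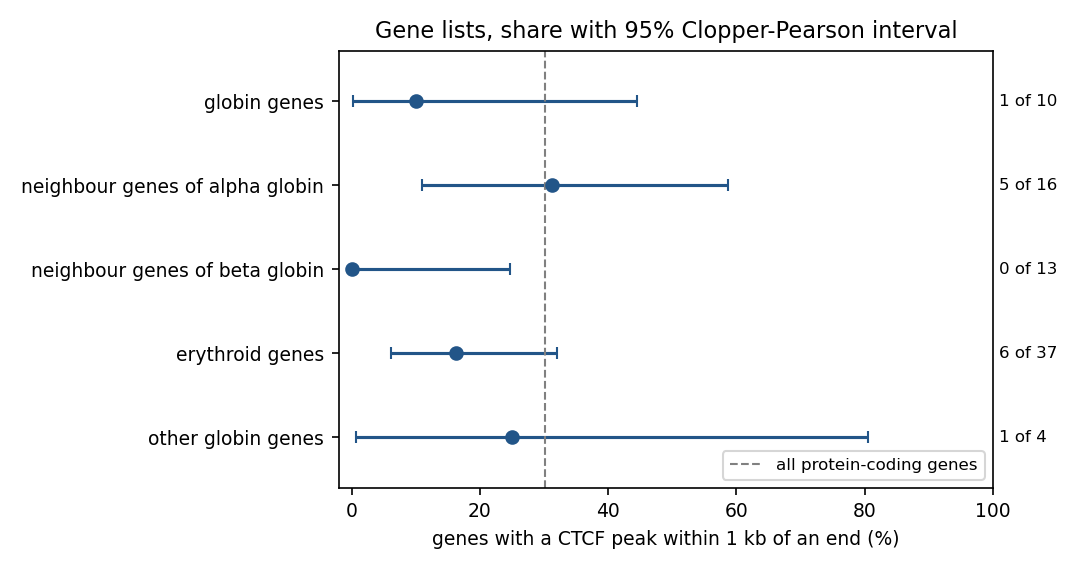
Percentage of genes with a CTCF peak within 1 kb of an annotated end (x axis) for the 10 globin genes and 4 related lists (y axis), with Clopper-Pearson 95% intervals and counts at the right. The dashed line marks the 30.1% of all protein-coding genes, and the interval of the 13 beta-globin neighbours, 0 to 24.7, lies below it. These 13 genes lie side by side and are not independent, and the difference from all genes was not tested.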

How the data were processed

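The submitters' processing notes list Bowtie2, HOMER and hg38, with no version; none is given in the sources used here. According to the deposited header lines, peaks of this 1 library were called by the authors with findPeaks (factor style), naming no control, at a false discovery rate of 0.001, a limit of 1 tag per base, and a minimum of 4-fold and a p of 1e-04 against the 10 kb around the peak. Extra DNA copies or repeats can thus be called as peaks, and no level is known where none was called. The deposited tag signal is tags per peak scaled to 10000000. The deposited focus ratio is a fraction, the deposited score is the caller's own, the deposited folds over the local region and per position are ratios, and the deposited p-value was not used. Peak positions are the authors' own.

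The 16 window peaks had 16 to 381 tags each, and their intervals cover counting error only: normalised tags were not held to 1 per position. Members and lists were chosen with earlier results of these data known. Named genes were the members, the gene nearest each window peak, genes sharing a member's peak-free interval, and of each other list the 3 with the highest-scoring peak and the first without. A few further genes, listed in the results, were named after their values were seen. Distances run from peak edges to RefSeq GRCh38.p14 gene ends on chromosomes 1 to 22 and X. Counts and distances were checked on simulated peaks. With 1 library there was no test, and alternatives varied the window, distance, score threshold and merging. Software was pandas 2.3.3, numpy 2.4.6 and scipy 1.17.1 under Python 3.11.15, with matplotlib 3.10.9 for figures.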

Additional observations from a re-analysis of the deposited data

How the results depend on the processing

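Of 42 recomputed values, 29 stayed within 1.5 times the reported count, within the counting interval of the median, or equal to the reported distance, and 13 moved. The bordering peaks and both peak-free intervals were the same when peaks under the median score were dropped. With a window of 100 kb the alpha-globin genes had 7 peaks and the beta-globin genes 2, and with 500 kb they had 27 and 15, with median normalised tags of 23.2 and 22.1. With a distance of 5 kb, 2 of the globin genes, 3 of the beta-globin neighbours, 21 of the red cell genes and 2 of the other globins had a peak, where 53.7% of all genes had one. Counting peaks inside genes as well gave 1 beta-globin neighbour, 23 red cell genes and 3 other globins, where 58.3% of all genes had one. No paired analysis was possible because only 1 sample was analysed, and for the same reason no replicate could be left out. With 19210460 tags, a region without a called peak may still bind CTCF without passing the caller's thresholds. The caller gave 15 tags as its false discovery limit, and its local filter removed a further 2591 of 45053 putative peaks.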

Other observations

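The outermost alpha-globin window peak lay 336 bp from DDX11L10, of a pseudogene family repeated mostly near chromosome ends. Of 8 members of the family in the annotation, 4 had a peak within 1 kb and 4 had none, where 6.56% of all 16458 annotated pseudogenes had a peak inside or within 1 kb. Besides DDX11L10 these were DDX11L5 on chromosome 9, with 49.7 normalised tags at 409 bp, DDX11L17 on chromosome 1, with 29.9 at 636 bp, and DDX11L2 on chromosome 2, with 307.4 at 351 bp. DDX11L2 lies at 113599028, far from the ends of its chromosome. The fold over the surroundings was 464.6 at DDX11L10, 170.4 at DDX11L5, 75.2 at DDX11L2 and 47.5 at DDX11L17. The copies are similar in sequence, so which of them a tag came from is uncertain. The family was looked up after the DDX11L10 peak had been seen.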
